A study of Saccharomyces cerevisiae with 2 samples.

Results

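Chromosome VII of budding yeast (Saccharomyces cerevisiae) without its outermost 30 kb at either end is described here. Its members are the probes on chromosome VII whose coordinate lies above 30 kb and below the largest coordinate of the chromosome minus 30 kb. The rule found 3566 probes, of 3749 on the chromosome and 41480 on the array, and used positions only, not measured values. They run from 30.1 to 1054.1 kb with a median spacing of 260 bp, and 496 of the 514 protein-coding genes that lie there hold at least 1 of them.

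The samples were cultures of the yeast strain WFA73, whose genotype is given as mec1, a mutant of the checkpoint kinase that guards stalled replication forks. In each, cells stopped in G1 by alpha factor were let into S phase with 200 mM hydroxyurea for 1 h, the drug was filtered out, and recovery in fresh medium lasted 1 h. The sample R-1h+BPS recovered in 0.8 micromolar BPS, an iron chelator, and the sample R-1h-BPS recovered without BPS. Both samples carry the mec1 mutation and were treated with hydroxyurea, so neither a cell with working Mec1 nor an untreated S phase was part of these 2 samples. Each was set on its own 2-colour array against G1 DNA of the same strain, with the recovery DNA in Cy3 and the G1 DNA in Cy5, and there was no dye swap. The question was whether the chelator changed where chromosomes break during recovery.

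Hydroxyurea blocks ribonucleotide reductase, an enzyme that itself needs iron, and so deprives replication forks of deoxynucleotides. Forks that stall near early origins need Mec1 to stay intact, and mec1 cells are known to break at forks once the drug is gone. In Break-chip, DNA held in agarose receives fluorescent nucleotides at its broken ends, so that regions with many ends give a high ratio of recovery DNA over G1 DNA. Large chromosomes such as VII hold many origins along both arms, with the centromere between them.

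A level below is the log2 of the deposited ratio, centred on the genome median of the same array and averaged in a window of 2 kb to each side of a position, usually 15 probes. A difference is the level on R-1h+BPS minus that on R-1h-BPS. The SE given with a level or a difference comes from the probes of that window and says nothing of scatter between arrays. Since each group has 1 array, differences could not be checked against replicates and are given without p-values. No source used here says which channel is the numerator. Recovery over G1 was assumed, since the columns are named for the recovery samples, and every sign below would turn if it ran the other way. Because the G1 DNA was hybridised separately on either array, a difference can come from the G1 side as well as from the recovery side, and extra copies of replicated DNA were not separated from broken ends. The scale does not allow total breakage to be set side by side. Positions are in kb as the deposited table gives them, and the build they refer to is not stated in the sources used here.

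The interior of chromosome VII was made of hills of high signal, mostly in the same places on both arrays, and valleys of low signal, less often so. Its median level was −0.06 with BPS and −0.05 without BPS, and the median difference was −0.03, the same as over all probes of the array. The levels of single probes spread with an SD of 0.87 with BPS and 0.71 without BPS. Among the 16 chromosome interiors these spreads ranked 2nd and 9th from the widest. Over the 3566 probes, which are neighbours on 1 molecule and share their arrays, Pearson's r between the arrays was 0.740 and Spearman's rho 0.746. After smoothing r was 0.830, against 0.865 over all probes, and 12 of the other 15 interiors had a higher smoothed r than VII.

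Places of much higher signal with BPS were found on VII, and lower signal of that size was rare or not seen. The smoothed difference exceeded 1 log2 unit at 84 of the 3566 probes (2.36%), against 1.44% of all probes on the array. It was below −1 at 0 of the 3566 probes, against 0.176% of all probes (73 probes). That 0 depends on the processing: it became 10 after scaling both arrays to an equal robust SD, 4 with medians of probes, 3 with odd-numbered probes only and 2 with a window of 1 kb either side. At the lower threshold of 0.5, the difference was above 0.5 at 387 probes (10.9%, against 7.84% of all probes) and below −0.5 at 157 probes (4.40%, against 4.97%). In the order of the share above 1, VII ranked 3 of 16 interiors, after IX with 4.71% and I with 3.54%. The share on VII leaned on 1 place: outside the mid-height span of its largest gain, at 712.8 to 721.3 kb, 52 probes (1.47%) exceeded 1, close to the share over the whole array.

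**Figure D1:**
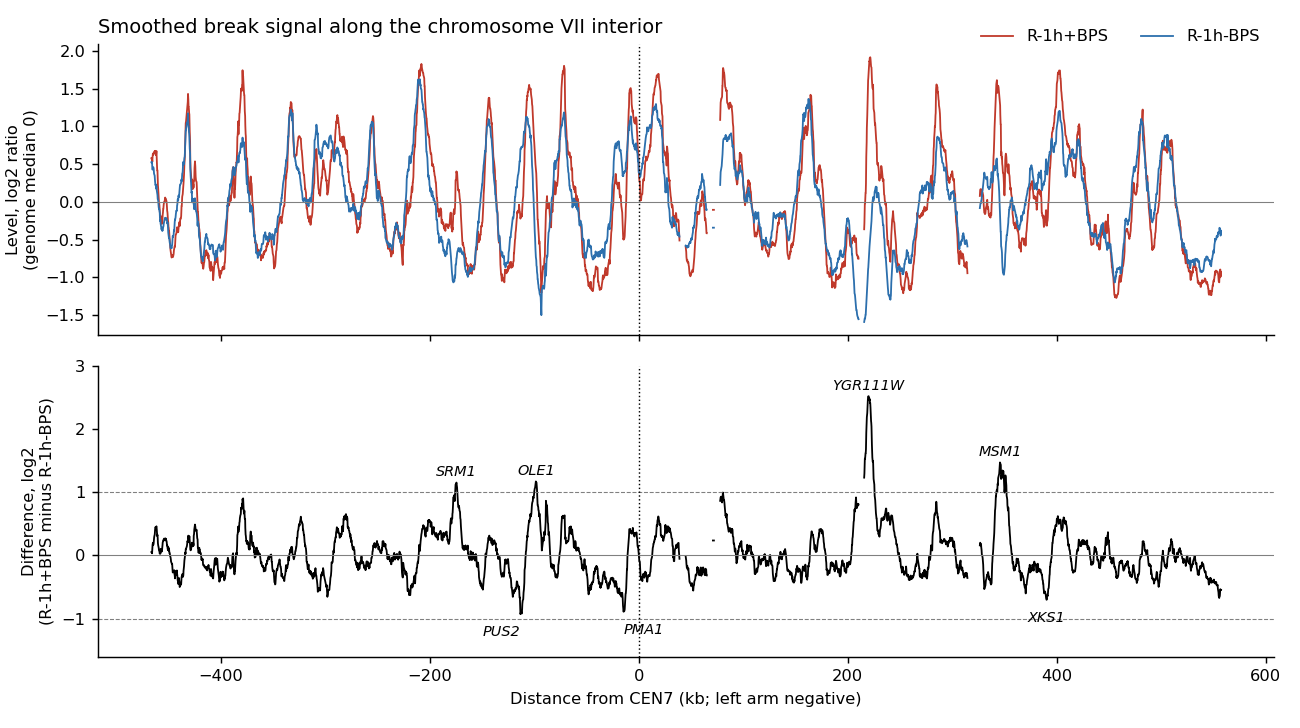
The upper panel plots the smoothed level (log2 ratio, genome median at 0) against distance from CEN7 in kb for R-1h+BPS (red) and R-1h-BPS (blue), and the lower panel plots their difference, with dashed lines at the threshold of 1 log2 unit in both directions. The difference reaches 2.52 at YGR111W and 1.47 at MSM1, and its lowest point is −0.93 at PUS2; breaks in the lines are stretches without probes.

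The plot of both tracks along the chromosome shows hills and valleys mostly in step on the 2 arrays, with places where the tracks part. Probes above 1 formed 6 blocks that together covered 22.0 kb. The longest ran from 712.5 to 722.3 kb around YGR111W and held 36 of the 84 probes. The next ran from 840.1 to 846.7 kb around MSM1 (25 probes) and was followed within 1 kb by a block at ERG1, from 847.2 to 848.7 kb (6 probes). Shorter blocks lay at OLE1 (9 probes), SRM1 (6 probes) and PSD2 (2 probes). The blocks were unequally placed on the arms: 69 of the 1895 right-arm probes (3.64%) exceeded 1, against 15 of the 1671 left-arm probes (0.898%). At the threshold of 0.5, 19 blocks higher with BPS covered 105.3 kb and 20 blocks lower with BPS covered 38.5 kb, the longest being 22.1 kb at YGR111W and 9.12 kb at PMA1.

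The largest gain lay at YGR111W, a gene of unknown function on the right arm (716.8 kb). The 16 probes of its window had levels of 0.65 to 2.71 with BPS (median 1.73), against −1.55 to −0.20 without BPS (median −0.72). The probes of the 2 arrays did not overlap. This window, like those of the other gains and losses, was picked for its difference. How many windows of the chromosome lack overlap was not computed, so such separation is no independent support. The mean level was 1.72 ± 0.13 with BPS and −0.80 ± 0.10 without BPS, a difference of 2.52 ± 0.09 log2 units or 5.73-fold. A stretch that was a valley without BPS was thus among the high places of the chromosome with BPS.

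Gene by gene, the difference climbed and fell over about 10 neighbouring genes. CLB1, a cyclin of mitosis, had a mean of −0.65 with BPS and −1.39 without BPS, a difference of 0.74. CLB6, an S phase cyclin, had −0.08 with BPS and −1.54 without BPS, a difference of 1.46. Beyond the gap in the probes, CLD1, a mitochondrial phospholipase of cardiolipin, had 0.47 with BPS and −1.44 without BPS. The difference was greatest at YGR111W (2.62) and at SHY1 (2.75), whose product helps to assemble cytochrome c oxidase. SHY1 had a mean of 2.16 with BPS and −0.59 without BPS over 5 probes. DAM1, a subunit of the kinetochore complex on microtubules, still differed by 2.01, SPT6, a histone chaperone of transcribed chromatin, by 0.94 over 14 probes, and YGR117C by 0.32, while RPS23A after it differed by 0.80 over 2 probes. The gain therefore spanned genes of unlike function that have their position in common.

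At the threshold of 0.5 the gain ran from 702.5 to 724.5 kb. Inside it was a stretch of 5.37 kb without probes (707.2 to 712.5 kb), at whose right edge the block above 1 began. There the reference gene table places the Ty retrotransposon frame YGR109W-B. Array designs commonly leave out such repeated elements. The probes that border this stretch were low on both arrays. On the right side the nearest probe had −2.00 with BPS and −1.76 without BPS, and the next −1.27 with BPS and −1.72 without BPS. The probe 0.887 kb from the gap already had 0.69 with BPS, against −1.45 without BPS. The left side showed the same order, with −1.63 against −1.24 at the gap and 0.18 against −1.59 at 0.857 kb. Over the 5 kb beside the gap, the mean difference was 0.74 ± 0.12 on the left and 1.96 ± 0.18 on the right. The nearest probe on each side was thus no higher with BPS, and those about 1 kb away were.

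**Figure D2:**
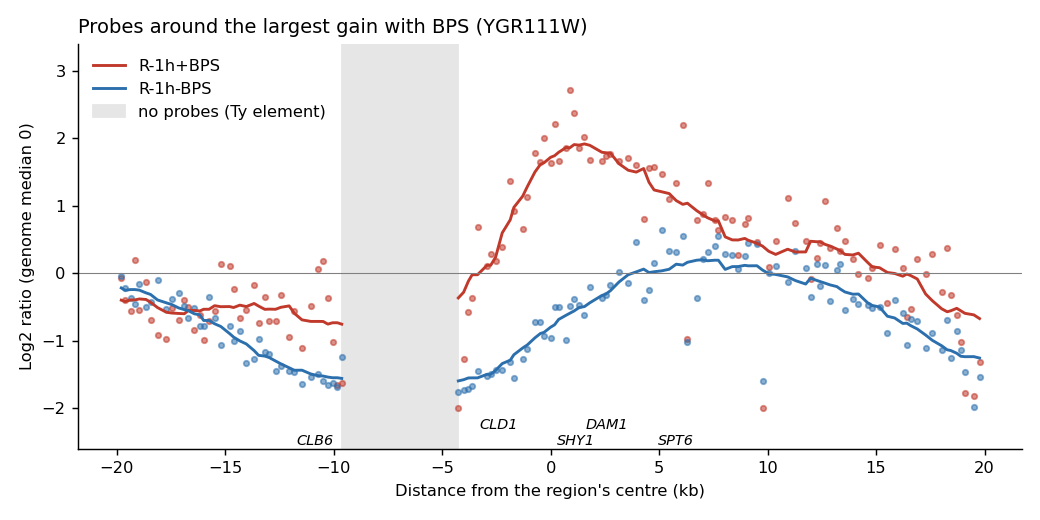
Single probes (points) and smoothed levels (lines), as log2 ratio, against distance in kb from the centre of the gain at YGR111W, for R-1h+BPS (red) and R-1h-BPS (blue), with the probe-free stretch in grey and gene names at their places. With BPS the 16 probes of the central window lie between 0.65 and 2.71, and without BPS between −1.55 and −0.20.

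Chromosome VII has 6 such gaps of over 4 kb in its interior. Some lie close together, so that 1 flank shared by 2 gaps holds 1 probe and another holds 4 probes with an SE of 0.50. Beside the other 5 gaps the flanks within 5 kb differed by between −0.36 and 0.24, apart from 1. That exception was the right flank of the gap that ends at 574.7 kb, with 1.51 with BPS and 0.63 without BPS, a difference of 0.87 ± 0.12 over 18 probes. It is the side on which BUD9 lies, and BUD9 was itself among the 10 largest gains.

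MSM1, which encodes the mitochondrial methionyl-tRNA synthetase, was the second gain (842.5 kb). Its 15 probes ran from −1.33 to 2.24 with BPS (median 1.502), against −1.08 to 0.63 without BPS (median −0.06), and they overlapped. The mean level was 1.30 ± 0.21 with BPS and −0.17 ± 0.14 without BPS, a difference of 1.47 ± 0.15 or 2.77-fold. ERG1, the squalene epoxidase of sterol synthesis, lay in the next block (847.9 kb) with 0.61 ± 0.16 with BPS and −0.66 ± 0.06 without BPS. Between MSM1 and ERG1 the genes YIP1 (1.51), RBG2 (1.89) and CBP4 (1.66) also differed by more than 1, CBP4 over 2 probes. CBP4 is an assembly factor of the cytochrome bc1 complex. As at YGR111W, a run of neighbouring genes shared the difference.

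SPT6 (721.9 kb), on the right shoulder of the YGR111W gain, had 1.21 ± 0.21 with BPS and 0.04 ± 0.13 without BPS. OLE1, the fatty acid desaturase of yeast and an enzyme with a di-iron centre, was the nearest gene to the fifth gain (398.2 kb). There the 14 probes lay between 0.06 and 1.02 with BPS (median 0.40), against −1.13 to −0.22 without BPS (median −0.71), with no overlap, and the difference was 1.17 ± 0.09. The sixth was at SRM1, the exchange factor of the Ran GTPase (322.2 kb), with 0.40 ± 0.12 with BPS and −0.75 ± 0.07 without BPS. At OLE1 and SRM1 the signal was above the genome median with BPS and below it without BPS, while at SPT6 it was near or above it on both arrays.

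The remaining 4 of the 10 largest gains stayed under 1 log2 unit. BUD9, a gene of bud site selection (577.3 kb), was high on both arrays, at 1.75 ± 0.12 with BPS and 0.76 ± 0.09 without BPS. MCM6, a subunit of the replicative helicase (118.0 kb), was also high on both, at 1.67 ± 0.25 with BPS and 0.77 ± 0.15 without BPS. CLB1 (704.7 kb), left of the gap described above, was low on both, at −0.48 ± 0.10 with BPS and −1.40 ± 0.05 without BPS. TIF4632, one of the genes for translation factor eIF4G (407.9 kb), had −0.12 ± 0.09 with BPS and −0.98 ± 0.09 without BPS, and its difference of 0.86 was 0.40 with a window of 4 kb either side. Of the 10 gains, which were picked for their difference, 8 stood above the genome median with BPS and 3 without BPS, so most were places of low signal in the absence of the chelator. Neighbouring gains were not independent: CLB1, YGR111W and SPT6 fell in 1 block at the threshold of 0.5, and so did MSM1 and ERG1.

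The 10 largest losses were smaller than the gains and ranged from −0.93 to −0.59. PUS2, a pseudouridine synthase gene (383.5 kb), stood first: its 11 probes lay between −1.05 and 0.15 with BPS (median −0.13), against 0.26 to 1.42 without BPS (median 0.70). These probes did not overlap, and the difference was −0.93 ± 0.17. PMA1, the proton pump of the plasma membrane (482.3 kb), had 12 probes between −0.94 and 0.03 with BPS (median −0.53), against −0.71 to 0.73 without BPS (median 0.49). Its difference was −0.89 ± 0.13, with 11 of 12 probes lower. XKS1, a xylulokinase gene (887.1 kb), had −0.17 ± 0.08 with BPS and 0.53 ± 0.08 without BPS.

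The other losses lay at YOR1, a drug efflux transporter (−0.67), NPY1, an NADH pyrophosphatase (−0.65), SUT1, a regulator of sterol uptake (−0.65), RPS2, a protein of the small ribosomal subunit (−0.63), PGD1, a Mediator subunit (−0.61), TYS1, the tyrosyl-tRNA synthetase (−0.60), and LEU1, an iron-sulfur enzyme of leucine synthesis (−0.59). With 4 kb either side the values at PGD1 and TYS1 were −0.37 and −0.34. In contrast to the gains, the level exceeded the genome median at 2 of the 10 losses with BPS and at 7 without BPS. On the chromosome 7 of the 10 were on the left arm. PMA1 and LEU1 shared 1 block of loss, from 475.6 to 484.7 kb, whose right end lay near the centromere. Since both sets were picked by the difference, these counts describe where the signal stood and are no support for the direction.

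Gene by gene over the 372 genes with at least 3 probes, 16 (4.30%) had a mean difference above 1, against 2.11% of 4315 such genes in the genome, and 0 had one below −1, against 0.209%. Besides those named above these were YGR122W (1.04), USE1 (1.06), SDS23 (1.11), ATF2 (1.14), KSS1 (1.33), ARO8 (1.19) and YGL039W (1.19). Many of the 16 were neighbours and not independent. CLB6, CLD1, YGR111W, SHY1 and DAM1 lie in 1 run, and MSM1, YIP1, RBG2 and ATF2 in another. The share above 1 therefore counts these places repeatedly. KSS1 is a kinase of the filamentous growth and mating pathways. YGL039W, next to OCH1, had the highest mean of these 16 genes with BPS, 2.28, against 1.09 without BPS. Below −1 were only genes on 1 probe, YGL007C-A (−1.33) beside PMA1 and YGR164W (−1.09).

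The hills, taken as the 10 highest maxima of the mean of both tracks, were all above the genome median on both arrays, at 1.35 to 1.81 with BPS and 0.83 to 1.63 without BPS. The first lay beside the tRNA gene YNCG0009C (287.3 kb), between COQ8, a gene of ubiquinone synthesis, and ARO5. Its 14 probes had 1.12 to 2.71 with BPS (median 1.63), against 0.88 to 2.37 without BPS (median 1.59). The groups of probes overlapped almost fully, and 7 of the 14 were higher with BPS. The mean was 1.72 ± 0.11 with BPS and 1.63 ± 0.11 without BPS, a difference of 0.09 ± 0.11. The non-coding transcript SUT126 (660.6 kb) gave a like picture, with 1.35 ± 0.10 with BPS and 1.28 ± 0.08 without BPS.

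Other hills were taller with BPS. OCH1, a mannosyltransferase gene of the Golgi (425.2 kb), had 1.81 ± 0.16 with BPS and 1.19 ± 0.06 without BPS, with 13 of 13 probes higher. ARO8, an aromatic aminotransferase gene next to MCM6 (117.4 kb), had 1.75 ± 0.15 with BPS and 0.85 ± 0.08 without BPS. BUD9 (577.8 kb) had 1.76 ± 0.13 with BPS and 0.83 ± 0.09 without BPS, the greatest difference of the 10 at 0.93 ± 0.11. PMT6, a protein mannosyltransferase gene (899.6 kb), had 1.74 ± 0.08 with BPS and 1.21 ± 0.05 without BPS. Both kinds of hill were places of high signal without the chelator as well. Hills were picked on the mean of both tracks, so this follows in part from the choice.

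The hills at YBP2 (391.8 kb), PMC1, the calcium pump of the vacuole (489.0 kb), MCY1 (513.3 kb) and SAP4, a phosphatase-associated factor (65.2 kb), differed by 0.55, 0.38, 0.32 and 0.26. All 10 hills had a positive difference in the centred data, from 0.07 to 0.93. The R-1h+BPS array has the wider spread of values over the whole genome, and when each array was divided by its own robust SD, or the arrays were quantile normalized, 2 of the 10 hills turned negative. Over all maxima of the averaged track past 1 robust SD, 19 of 21 were higher with BPS (median difference 0.32), and of the 20 minima 15 were lower, with a median of −0.22. These counts are from the centred data, where the smoothed track of VII had an SD of 0.741 with BPS and 0.615 without BPS. They were not repeated after either scaling or on the other interiors, so they cannot be told apart from that wider spread.

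The valleys lay mostly on the right arm, 9 of the 10 deepest, and that arm holds 1895 of the 3566 probes. The deepest on the mean of both tracks was beside MST27 (403.5 kb), at −1.21 ± 0.28 with BPS and −1.50 ± 0.12 without BPS over 10 probes. On either array by itself other valleys were lower, such as PHB2 with BPS and the gap edge at 712.5 kb without BPS (−1.59). PHB2, a prohibitin of mitochondria (952.7 kb), had −1.27 ± 0.07 with BPS and −1.06 ± 0.06 without BPS. UTP8, a nucleolar factor (749.9 kb), had −1.21 ± 0.06 with BPS and −0.96 ± 0.06 without BPS. ASK10 (681.9 kb), RNH70, a ribonuclease gene (1044.8 kb), SLH1, an RNA helicase gene (1034.7 kb), and PEX4, a peroxisomal ubiquitin-conjugating enzyme (757.4 kb), were likewise lower with BPS, by 0.17 to 0.38 log2 units. The other 4 valleys were shallower with BPS. They were MST27, PPT1, a phosphatase gene (737.6 kb, −0.80 with BPS and −1.30 without BPS), and both edges of the gap beside CLB6 and CLD1 (707.2 and 712.5 kb). The valleys were not all separate places, since these edges flank a single gap. At mid-height RNH70 and SLH1 shared the same span (1017.1 to 1054.1 kb), and the spans of UTP8 and PEX4 nearly coincided.

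Counted on each array by itself, maxima past 1 robust SD numbered 21 with BPS and 20 without BPS. Of these, 16 had a partner within 2.5 kb on the other array, which is 76.2% of those with BPS and 80.0% of those without BPS. Minima numbered 20 with BPS and 22 without BPS, and 13 had a partner, 65.0% of those with BPS and 59.1% of those without BPS. With partners counted within 1 kb, 11 maxima and 9 minima had one, and within 5 kb 16 of the maxima with BPS (76.2%) and 15 of the minima with BPS (75%) did. At a height of 1.5 robust SDs, 8 of 16 maxima with BPS (50%) and 8 of 8 without BPS had a partner within 2.5 kb. Minima of that depth numbered 4 on each array, and 1 had a partner. Partners were not counted on the other interiors, so whether VII shares more or fewer extremes than they do is not known.

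Averaged over 20 kb either side, the surroundings of the centromere of VII were high on both arrays. Over 20 kb either side of CEN7, placed at 497 kb between ERG26 and YGR001C, the level was 0.75 ± 0.06 with BPS and 0.81 ± 0.04 without BPS (143 probes). That level was the highest of the 16 centromeres on both arrays, but with 10 kb either side CEN7 ranked 4th on both. The hills at PMC1 and MCY1 lie inside the window of 20 kb, on either side. The centres of the losses at PMA1 and LEU1 lie inside it too, on the left. PMA1 had −0.50 with BPS and 0.39 without BPS, and LEU1 0.18 with BPS and 0.76 without BPS. Within 2 kb of CEN7 itself the level was lower, 0.41 ± 0.18 with BPS and 0.39 ± 0.11 without BPS, and 7 centromeres with BPS and 9 without BPS were higher. The difference was 0.02 ± 0.11 at 2 kb and −0.06 ± 0.05 at 20 kb, where it ranked 9th of the 16.

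Along the arms, the 50 kb stretch with the largest difference was the one 200 to 250 kb right of CEN7, which holds the YGR111W gain. Its median was −0.07 with BPS and −0.72 without BPS, with 36 of its 157 probes above 1. The first 50 kb left of CEN7, which holds PMA1 and LEU1, had a median of −0.51 with BPS and 0.08 without BPS. The first 50 kb on the right had 0.48 with BPS and 0.53 without BPS. Over whole arms the medians nearly agreed, at −0.02 with BPS and 0.0021 without BPS on the left and −0.09 on both arrays on the right.

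The listed iron-related genes of the chromosome did not share a direction. The list is not a full set, since OLE1, the di-iron enzyme named above, is not in it. As background for the counts of each list, 47.3% of 5650 genes of the genome and 48.2% of 496 genes of the interior were higher with BPS. Of the 7 listed genes for iron regulation and for heme, iron-sulfur and sterol synthesis, 3 were higher and 4 lower with BPS. Their median gene mean was 0.27 with BPS and 0.58 without BPS, and the median difference −0.18, against −0.02 over the 496 genes of the interior and −0.03 over 5650 genes of the genome. Of the 7, 1 differed by more than 0.5 (ERG1, 0.96), against 10.6% of all genes of the genome, and 1 by less than −0.5 (LEU1, −0.66), against 8.64%. AFT1, the transcription factor that turns on iron uptake genes, had −0.70 with BPS and −0.52 without BPS. HEM2, an enzyme of heme synthesis, had 0.63 with BPS and 0.84 without BPS. The sterol genes ERG4 (−0.28), ERG25 (0.13) and ERG26 (0.27) lay on both sides of 0.

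Of the 8 genes for the respiratory chain and its assembly, 4 were higher and 4 lower with BPS, and the median difference was 0.13. SHY1 (2.75) and CBP4 (1.66) were the extremes and lie in the 2 largest blocks of gain. QCR9, a subunit of the bc1 complex, differed by 0.51, on 1 probe. COX13 (−0.43) and COX4 (−0.40), both subunits of cytochrome c oxidase, and TIM21 (−0.30) were lower. Outside those 2 blocks the genes of this list thus differed by 0.51 at most.

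The list of replication, repair and cell cycle genes held 17 members, of which 9 were higher and 8 lower with BPS, with a median difference of 0.11. It is not a full set, since genes of the interior such as DAM1, SLD3 and BUB1 are not in it. The shares that follow depend on that choice. A difference above 0.5 was seen in 5 of the 17 (29.4%), against 13.91% of the 496 genes of the interior and 10.6% of those of the genome. One below −0.5 was seen in 3 (17.6%), against 10.48% of the genes of the interior and 8.64% of those of the genome. Counts this small cannot decide whether the list differs from the rest of the interior. The 5 were CLB6 and CLB1, which are neighbours in the leading block, RAD6, the ubiquitin-conjugating enzyme of postreplication repair (0.64), MCM6 (0.59) and CDC20, an activator of the anaphase-promoting complex (0.51). The 3 were MAD1 of the spindle checkpoint (−0.60), TEL2, which stabilises checkpoint kinases (−0.52), and RTT102 (−0.52, 2 probes). RNR4, a small subunit of ribonucleotide reductase, the enzyme that hydroxyurea blocks, had −0.48 with BPS and −0.18 without BPS. SAE2, which acts in the resection of broken ends, had 0.54 with BPS and 0.18 without BPS. CDC20 was the gene of this list with the highest level on both arrays, 1.95 with BPS and 1.44 without BPS, and it lies on the hill at YNCG0009C.

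Among 7 genes of glycolysis, fermentation and glucose signalling, 2 were higher and 5 lower with BPS, with a median difference of −0.30. The share higher was 28.6%, against 48.2% of all genes of the interior, and on 7 genes it gives no direction for the list. TDH3, the main glyceraldehyde-3-phosphate dehydrogenase, had −0.72 with BPS and −0.04 without BPS. PYC1, a pyruvate carboxylase gene next to the loss at PUS2, had 0.45 with BPS and 0.93 without BPS. ENO1, an enolase gene, was high on both arrays, with 1.22 with BPS and 1.43 without BPS. MIG1, the repressor of glucose-repressed genes, differed the other way by 0.52. TDH3 and ENO1 belong to gene families, and cross-hybridisation to the copies elsewhere was not tested.

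Of 12 genes of transcription and chromatin, 7 were higher and 5 lower with BPS (median difference 0.17), from −0.51 at NSR1 to 0.94 at SPT6. Of 7 plasma membrane transport genes 2 were higher and 5 lower (median −0.01), but 5 of them differed by 0.09 at most. The exceptions were PMA1 (−0.72) and the ammonium permease gene MEP1, with 0.11 with BPS and −0.57 without BPS. The 13 cytosolic ribosomal protein genes with a probe had a median of 0.25 with BPS and −0.0042 without BPS and a median difference of 0.03, with 7 higher and 6 lower. The 6 mitochondrial ones had a median difference of −0.03. Neither group stood off the genome median difference by more than 0.1.

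Reading frames of 5 kb or longer were low on both arrays. The 5 of 9 that hold a probe, each on 20 to 28 probes, had a median of −0.54 with BPS and −0.31 without BPS, and 0 of the 5 lay above the genome median on either array. They were the glucan synthase gene GSC2, the ubiquitin ligase gene UBR1, SLH1, the translational regulator GCN1 and the calcium channel gene CCH1. The tRNA genes, each taken with 0.5 kb either side, had a median of −0.37 with BPS and −0.15 without BPS over 36 genes, with 16 higher and 20 lower. Over the 275 tRNA genes of the genome the medians were −0.34 with BPS and −0.12 without BPS, with 90 higher and 185 lower. The tRNA genes of VII spanned nearly the whole range of levels, from −1.64 to 1.78 with BPS and from −1.65 to 1.73 without BPS, with YNCG0032W lowest and YNCG0009C highest on both arrays.

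**Figure D3:**
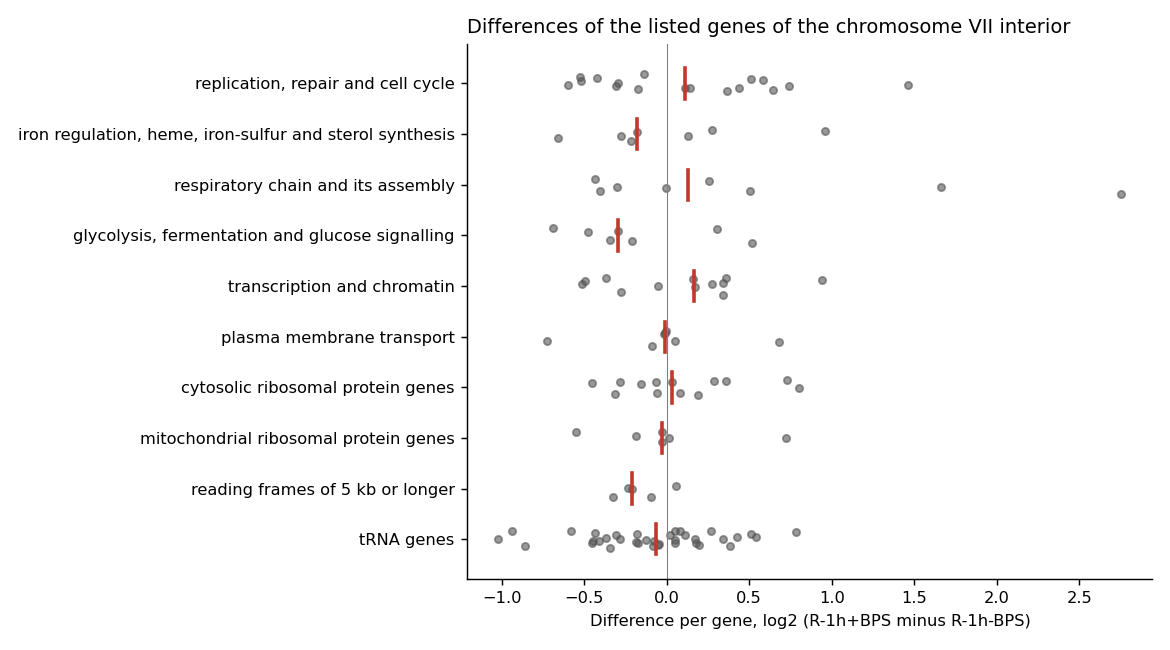
Each point is the mean difference of 1 gene (log2, R-1h+BPS minus R-1h-BPS) and each red bar the median of its list. SHY1 at 2.75 and CBP4 at 1.66 are the 2 rightmost points of the respiratory chain list and CLB6 at 1.46 that of the replication list, while the medians of the 10 lists lie between −0.30 and 0.17.

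The plot of the listed genes shows that members of every list lay on both sides of 0. By place in or between genes, the 2611 probes in reading frames had a median difference of −0.02 and the 333 probes between divergent genes −0.13, against −0.02 and −0.08 over all probes of the array.

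The hills of VII also differed in shape between the arrays, a pattern chosen after the values were seen. From 4 to 12 kb left of a hill's centre the signal was lower with BPS at 9 of the 10 hills (median difference −0.27), and from 4 to 12 kb right of it higher at 9 of the 10 (median 0.27). At YBP2 the left flank had −0.04 with BPS and 0.58 without BPS, and the right flank −0.03 with BPS and −0.93 without BPS. At YNCG0009C, whose summit barely differed, the left flank had 0.18 with BPS and 0.70 without BPS, and the right flank 0.90 with BPS and 0.46 without BPS. After the smoothed R-1h+BPS track was moved back by the 0.8 kb offset given next, the left flank was lower at 7 of the 10 hills (median −0.19) and the right flank higher at 9 (median 0.22). The pattern was not confined to VII. Over the maxima of the averaged track with at least 5 probes on each flank, the difference was higher on the right flank than on the left at 18 of 20 on VII (90.0%) and at 177 of 226 on the other 15 interiors (78.3%). The right flank of YBP2 holds the gain at OLE1, and its left flank the loss at PUS2.

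**Figure D4:**
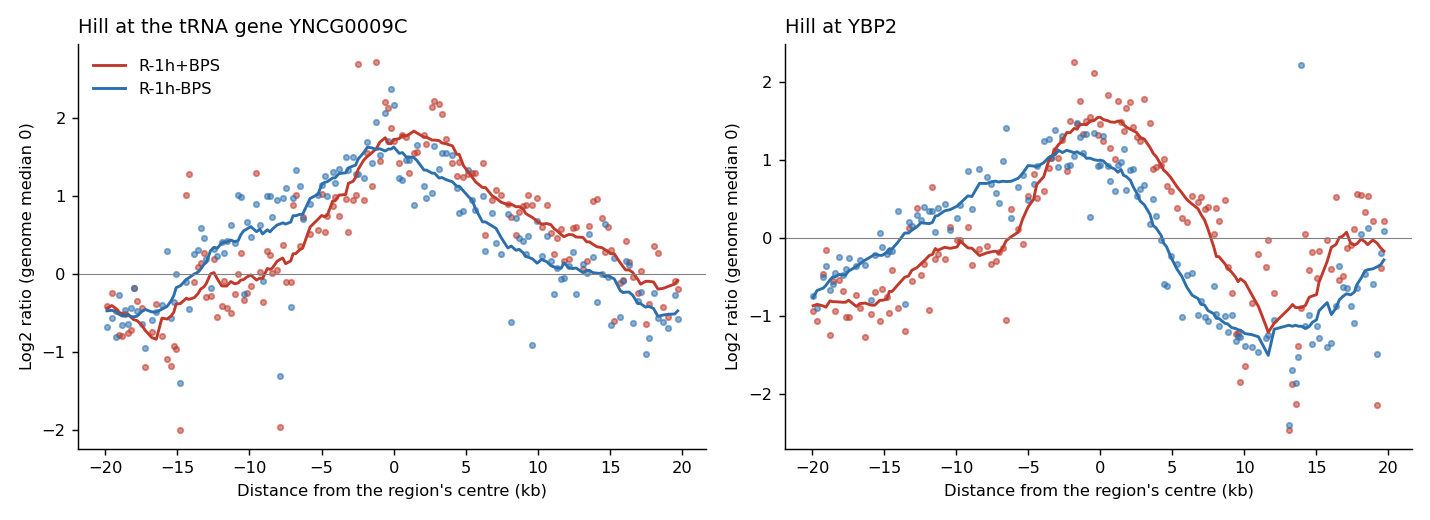
Single probes (points) and smoothed levels (lines), as log2 ratio, against distance in kb from the centres of the hills at YNCG0009C (left) and YBP2 (right), for R-1h+BPS (red) and R-1h-BPS (blue). On both hills the red line lies below the blue one on the left slope and above it on the right slope, by −0.62 and 0.89 on average at YBP2.

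Taken along the whole interior, the tracks matched best when the R-1h+BPS track was moved back by 0.8 kb towards lower coordinates, where r between them was 0.830, against 0.823 in place. These values were computed on the tracks interpolated to an even grid, without the 6 kb at each end of the interior, and so differ slightly from the r over probes given above. The best offset had the same sign on all 16 interiors, from 0.15 to 1.15 kb with a median of 0.8 kb, so it was not particular to VII. It was 1.45 kb on the left arm of VII and 0.15 kb on the right arm. It also grew with smoothing, to 1.55 kb on VII with 4 kb either side, against 0.2 kb with 1 kb either side. Deviations of single probes from their surroundings lined up in place, with an r of 0.43 between the arrays at 0 probes and −0.05 and −0.06 when moved by 1 probe in one or the other direction. An effect of the probe itself would sit in place on both arrays, so these values do not bear on the offset of the broader signal. After the R-1h+BPS track was moved back by 0.8 kb, 87 probes of the interior exceeded 1 and 0 were below −1. Each of the 10 gains and 10 losses kept its sign, the gains between 0.68 and 2.66 and the losses between −0.88 and −0.41.

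**Figure D5:**
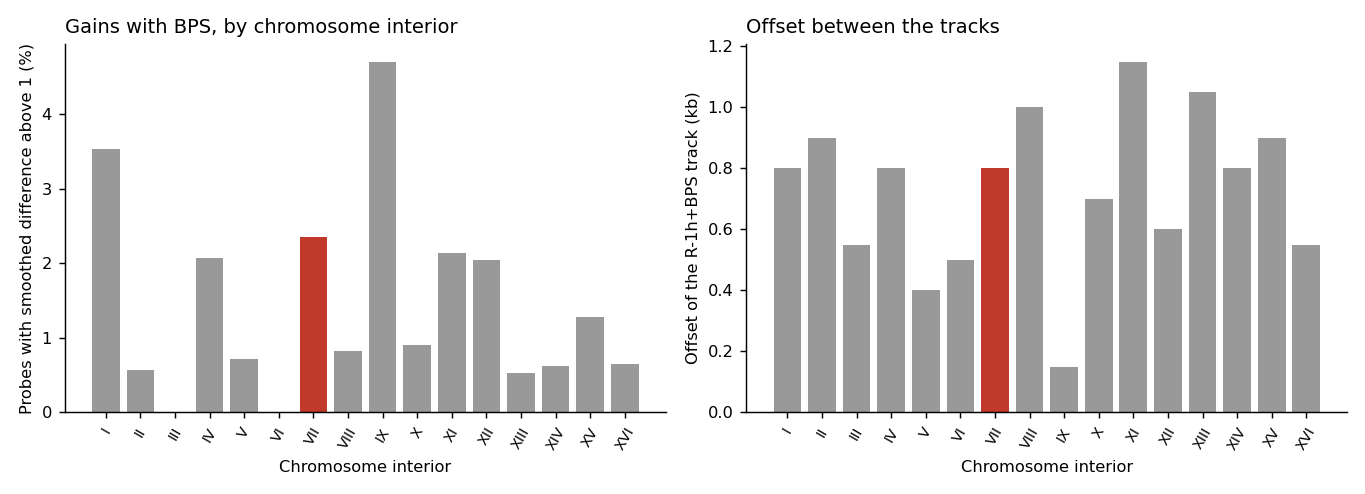
Bars give, for each of the 16 chromosome interiors, the share of probes with a smoothed difference above 1 log2 unit in percent (left) and the offset of the R-1h+BPS track in kb (right), with VII in red. VII has 2.36% of its probes above 1, below IX (4.71%) and I (3.54%), and an offset of 0.8 kb, the median of the 16.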

How the data were processed

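DNA of 2 recovery samples was measured on 2 arrays, 1 per group, and groups were taken from the sample titles. For every probe the deposited table holds a linear ratio on each array, and the authors call these ratios normalized. The submitters' processing notes name Agilent Feature Extraction 9.5.1. How the ratios were normalized is not given in the sources used here, no scanner intensities were used, and signal over background was not assessed. The number of arrays limits the precision.

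Ratios of all 41480 probes were converted to log2, centred on each array's median and smoothed by the mean within 2 kb either side (Python 3.11.15, numpy 2.4.6, pandas 2.3.3, scipy 1.17.1, matplotlib 3.10.9). No filter on low values was used. Maxima and minima were the extremes within 5 kb either side past 1 robust SD (a scaled median absolute deviation of the smoothed track). Named regions rest on at least 5 probes and lie at least 5 kb apart: the 10 highest maxima and 10 lowest minima of the mean of both tracks and the 10 largest differences in each direction, each named by the gene at or nearest its centre. Genes of the fixed lists, CEN7 and its neighbours were named too. Genes and regions named outside this rule, such as the other genes with a mean difference above 1, the genes around YGR111W and MSM1 and the flanks of the hills, were chosen after their values were seen. The search for regions was checked on simulated arrays.

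Genes were named from RefSeq's table for assembly R64, whose coordinates are not reported. On VII, 5 long Ty frames of that table held 0 probes in place, 5 when moved by 0.5 kb either way and 13 when moved by 1 kb, so positions match to about 0.5 kb.

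Members and lists were chosen with earlier results of these data known. The lists were also trimmed after the files were opened, by leaving out genes off the interior or whose function did not match the list's name, and before the values of the lists were computed. The lists are therefore not independent evidence. Lists picked by function, such as those for replication and for iron, are also not full sets of such genes on the interior.

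Alternatives were other windows and thresholds, division by the robust SD, quantile normalization, other centring, medians, odd or even probes, probes near gaps left out and genes moved by 0.5 or 1 kb. Leaving out the YGR111W block, leaving out probes within 5 kb of a gap, and moving 1 track back were added after the data were seen. No sequences were used here.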

Additional observations from a re-analysis of the deposited data

How the results depend on the processing

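No paired analysis was possible because each group has 1 array. Without centring, the median level of the interior was 0.24 with BPS and 0.23 without BPS. The SD was 0.97 with BPS and 0.87 without BPS after division by each array's robust SD, and 0.80 and 0.78 after quantile normalization. The count of probes above 1 was 39 with odd-numbered and 49 with even-numbered probes only, where fewer probes enter, 387 at a threshold of 0.5, 27 at 1.5 and 48 without the block at YGR111W and SHY1. The count below −1 was 2 with a window of 1 kb either side, 10 after division by the robust SD, 4 with medians of probes, 3 with odd-numbered probes and 157 at a threshold of 0.5, and the cause was not tested. At 1.5 robust SDs there were 16 maxima with BPS and 8 without BPS, and 8 of those with BPS (50%) had a partner. Minima then numbered 4 on each array, 1 of them shared. With 4 kb either side there were 14 minima without BPS, and 6 of those with BPS had a partner.

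No gain or loss changed sign under another window, scaling, median or set of probes, but their size moved. The 10 gains, 0.86 to 2.52 as reported, were 0.40 to 2.15 with 4 kb either side, 0.75 to 2.67 with 1 kb and 0.68 to 2.43 after quantile normalization. The 10 losses, −0.93 to −0.59 as reported, were −0.63 to −0.34 with 4 kb either side, −0.88 to −0.52 with 1 kb and −0.97 to −0.50 after quantile normalization. When genes were moved by up to 1 kb, the median difference changed sign in 2 or 3 of the 10 lists. The smoothed difference from odd-numbered probes correlated with that from even-numbered ones at r = 0.872, which covers scatter between probes and not between cultures or arrays.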
